A study of Mus musculus with 15 samples.

Results

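Npl and 8 other genes of sialic acid metabolism (Renbp, Nans, Nanp, Gne, Cmas, Neu1, Neu3 and Nagk) were followed in RNA from the ileum of 15 mice. These 9 genes were taken by their gene symbol from the 17752 genes listed in any mouse, and all 9 passed the filter on low counts that left 14386 genes for testing. Npl was selected on its measured values, because its level was lower in mice given proanthocyanidins (PAC) than in mice given water. Its differences between groups are therefore given as a description, without a test. The other 8 genes were added as the pathway around Npl.

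The study asked whether grape PAC of different mean degrees of polymerization (mDP, the average number of flavan-3-ol units in a chain) alter transcription in the intestine. Female C57BL/6 mice (C57BL/6JOlaHsd in the methods), labelled as 8 weeks old and described in the methods as younger on arrival, were kept on a purified control diet. By gavage, 5 mice received water, 5 received a low mDP PAC fraction and 5 received a medium mDP PAC fraction, each PAC at 200 mg/kg every 2 days over 10 days. The sample labels call the medium mDP group high molecular weight PAC. Each mouse gave 1 library from a piece of ileum, so the spread between mice of a group holds both animal and sampling differences. The p-values of group differences set them against the spread between these mice.

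Sialic acids are acidic sugars that cap the glycans of mucins, membrane proteins and gangliosides, and the intestinal epithelium carries large amounts of them. Cells make them from UDP-N-acetylglucosamine. Gne forms and phosphorylates N-acetylmannosamine, Nans condenses it with phosphoenolpyruvate, Nanp removes the phosphate, and Cmas activates the free sialic acid with CMP so that sialyltransferases can use it. Neu1 in the lysosome and Neu3 at the plasma membrane cleave sialic acid from glycans. Npl, the N-acetylneuraminate pyruvate lyase of the cytosol, then splits free sialic acid into N-acetylmannosamine and pyruvate, after which Renbp, an epimerase, and Nagk, a kinase, return the sugar to the N-acetylglucosamine pool.

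All levels below are FPKM, the fragments of a gene scaled by transcript length and library size, as deposited, and can be compared between genes. All log2 fold changes are from edgeR on the expected counts of the same libraries, with the standard error (SE) and a 95% interval. Libraries held from 15963086 to 17903886 expected counts in total. Fabp6, the ileal bile acid-binding protein, had a mean of 5679 FPKM in water mice of the tissue labelled as ileum, and Pdx1, a duodenal factor, had a mean of 0.028 FPKM. Other markers of the proximal small intestine were present in the same mice, with means of 423.6 FPKM for Apoa4, 211.6 for Fabp1, 92.2 for Creb3l3 and 56.3 for Lct. The scaling of the libraries matters for small differences. Of the genes with an unadjusted p under 0.05 for medium mDP PAC against water, 29.5% were higher on edgeR's TMM scale and 81.1% were higher when log2(FPKM + 0.1) was tested with limma.

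In water mice the 9 genes spanned from 1.05 ± 0.170 FPKM for Neu3 to 50.2 ± 4.63 FPKM for Cmas (mean ± SD, n = 5). Neu1 followed Cmas with 49.5 ± 14.5 FPKM, then Nans with 35.3 ± 1.29 and Npl with 33.0 ± 7.99 FPKM. Cmas, Neu1 and Nans each overlapped with the next in this order, while Cmas lay above every value of Nans and Npl. Below all values of Npl stood Nagk with 18.4 ± 0.887, Gne with 13.2 ± 1.03, Nanp with 11.8 ± 0.981 and Renbp with 3.10 ± 0.524 FPKM, of which Gne and Nanp overlapped. By its mean, Npl was the fourth most abundant of the 9 genes in water mice, the sixth in low mDP PAC mice and the seventh in medium mDP PAC mice. None of the other 8 genes moved by more than 1 place among themselves.

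Npl, the lyase, lies on the minus strand at chr1:153503015-153550045 (GRCm38, GENCODE M21). In the 5 water mice, in the order of their numbers, it stood at 28.86, 21.35, 34.91, 41.21 and 38.63 FPKM. In low mDP PAC mice it stood at 8.49, 7.50, 15.79, 15.54 and 22.03 FPKM. In medium mDP PAC mice it stood at 9.94, 18.85, 5.40, 5.77 and 7.87 FPKM. All 5 medium mDP PAC mice lay below the lowest water mouse, and 4 of 5 low mDP PAC mice did so, the exception being mouse 5. With the TMM-scaled counts in place of FPKM, 5 of 5 low mDP PAC mice lay below the lowest water mouse. Over all genes tested, groups separated in this way with medium mDP PAC lower in 0.646%, and with medium mDP PAC higher in 3.99%, of genes, and since these values chose Npl nothing is read from that.

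The mean of Npl was 33.0 ± 7.99 FPKM in water mice, 13.9 ± 5.97 in low mDP PAC mice and 9.57 ± 5.50 in medium mDP PAC mice. Against water, Npl differed on the log2 scale by -1.88 in medium mDP PAC mice (SE 0.35, interval -2.61 to -1.14), a 3.67-fold lower level, and by -1.31 in low mDP PAC mice (SE 0.34, interval -2.03 to -0.59), a 2.48-fold lower level. Between the fractions, given at the same dose and schedule, Npl differed by -0.57 (medium minus low, SE 0.34, interval -1.30 to 0.16), and the groups overlapped widely. The spread within groups was wide, with a coefficient of variation of 24.2% in water mice, 43.0% in low mDP PAC mice and 57.5% in medium mDP PAC mice. The lowest mouse had 123 expected counts of Npl.

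**Figure D1:**
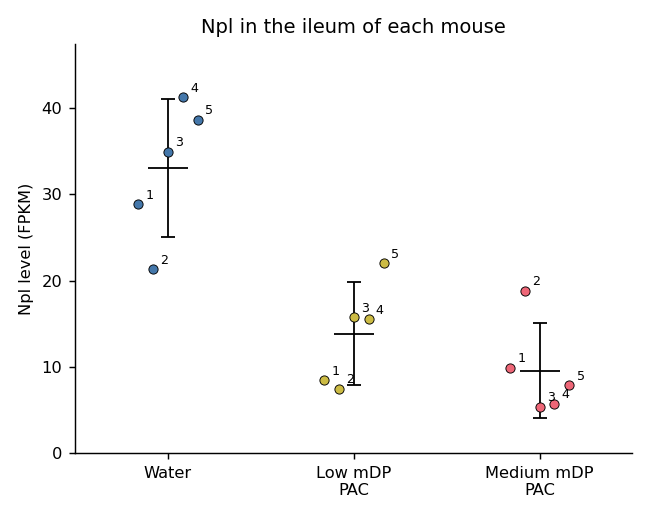
Level of Npl in FPKM (vertical axis, starting at 0) in each of 5 mice per group (points, numbered by mouse), with the mean and SD (line and bars). All medium mDP PAC mice lie below the lowest water mouse at 21.35 FPKM, while low mDP PAC mouse 5 lies within the range of water.

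Renbp, which acts right after Npl as the epimerase from N-acetylmannosamine to N-acetylglucosamine, is X-linked (chrX:73922121-73930850, minus strand). Its level was 3.22, 3.69, 3.39, 2.33 and 2.86 FPKM in water mice. It was 5.74, 4.35, 4.58, 2.13 and 4.12 FPKM in low mDP PAC mice and 5.15, 3.72, 4.31, 4.39 and 5.36 FPKM in medium mDP PAC mice. The 5 medium mDP PAC mice all lay above the highest water mouse in FPKM, though mouse 2 only by a small margin. On the TMM scale 4 of 5 did so. On the log2 scale Renbp differed from water by 0.46 for medium mDP PAC (SE 0.21, interval 0.03 to 0.90) with an unadjusted p of 0.0391 and an edgeR adjusted p of 0.314, so it was not called. It was 0.38 for low mDP PAC (SE 0.21, interval -0.06 to 0.82, edgeR adjusted p = 0.976), where 4 of 5 mice lay above and mouse 4 below all water mice. Renbp had between 46 and 135 expected counts per mouse, the fewest of the 9 genes after Neu3.

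Nagk, the kinase that phosphorylates the recovered N-acetylglucosamine (chr6:83794982-83804018, plus strand), held a mean of 18.4 ± 0.887 FPKM in water mice, 17.7 ± 1.79 in low mDP PAC mice and 19.5 ± 2.08 in medium mDP PAC mice. As log2 fold changes these were -0.01 for medium mDP PAC (interval -0.21 to 0.19) and -0.11 for low mDP PAC (interval -0.31 to 0.09). The sign of the first depended on the scaling, with 0.08 in limma on log2(FPKM + 0.1). The intervals leave out a change of the size seen for Npl. The ratio of Npl to Renbp in FPKM, within a mouse, had a median of 10.3 in water mice, 3.45 in low mDP PAC mice and 1.47 in medium mDP PAC mice. It ranged from 5.79 to 17.7, from 1.48 to 7.30 and from 1.25 to 5.07 in these groups. The ratio holds the difference for which Npl was selected, so it is a description only.

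Gne, the rate-limiting enzyme of sialic acid synthesis (chr4:44034075-44084177, minus strand), ranged from 12.04 to 14.38 FPKM in water mice, from 13.13 to 16.51 in low mDP PAC mice and from 12.13 to 15.56 in medium mDP PAC mice, and the 3 ranges overlapped. Gne had a log2 fold change of -0.04 for medium mDP PAC (interval -0.20 to 0.12) and 0.04 for low mDP PAC (interval -0.11 to 0.20). On the FPKM scale the medium mDP PAC value was 0.06, so its direction rests on the scaling.

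Nans, the synthase that joins N-acetylmannosamine phosphate to phosphoenolpyruvate (chr4:46489248-46503632, plus strand), had 37.39, 35.42, 35.32, 34.03 and 34.51 FPKM in water mice. It had 35.76, 42.19, 37.43, 40.35 and 31.65 FPKM in low mDP PAC mice and 35.53, 36.20, 53.68, 37.92 and 37.51 FPKM in medium mDP PAC mice. Medium mDP PAC mouse 3 stood far above the other 4, which lay near the water mice. Nans had a log2 fold change of 0.09 for medium mDP PAC (interval -0.15 to 0.32) and 0.03 for low mDP PAC (interval -0.20 to 0.27), and without medium mDP PAC mouse 3 the first was 0.002. The ratio of Npl to Nans in FPKM, a lyase to a synthase, had a median of 0.988 in water mice, 0.385 in low mDP PAC mice and 0.210 in medium mDP PAC mice. It ranged from 0.603 to 1.21, from 0.178 to 0.696 and from 0.101 to 0.521, and it too holds the difference that chose Npl. Exons of Nans overlap those of Trim14 on the other strand, and whether the counting used strand is not given in the sources used here.

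Nanp, the phosphatase that frees sialic acid (chr2:151029685-151039398, minus strand), ranged from 10.95 to 13.41 FPKM in water mice, from 11.06 to 13.30 in low mDP PAC mice and from 10.99 to 18.34 in medium mDP PAC mice. Nanp had a log2 fold change of 0.12 for medium mDP PAC (interval -0.14 to 0.36) and -0.03 for low mDP PAC (interval -0.28 to 0.22). Its highest mouse was again medium mDP PAC mouse 3. Exons of Nanp overlap those of Ninl on the same strand, so its reads may not all be its own.

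Cmas, the CMP-sialic acid synthetase of the nucleus (chr6:142756686-142775714, plus strand), had 49.49, 53.76, 56.11, 45.25 and 46.57 FPKM in water mice and 52.03, 53.22, 49.85, 50.60 and 51.23 FPKM in low mDP PAC mice. In medium mDP PAC mice it had 55.14, 57.74, 69.08, 57.61 and 56.69 FPKM. All 5 medium mDP PAC mice lay above all low mDP PAC mice, and 4 of 5 lay above all water mice. On the TMM scale 3 of 5 lay above the low mDP PAC mice and 1 of 5 above the water mice. Cmas had a log2 fold change of 0.14 against water (SE 0.08, interval -0.03 to 0.31, edgeR adjusted p = 0.404) and 0.16 against low mDP PAC (SE 0.08, interval 0.00 to 0.33, edgeR adjusted p = 0.896), neither of which was called. Low mDP PAC differed from water by -0.02 in Cmas (interval -0.19 to 0.14).

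Neither sialidase passed the test in any comparison. Neu1, the lysosomal sialidase (chr17:34931253-34935953, plus strand), had 61.16, 60.34, 58.32, 37.07 and 30.68 FPKM in water mice. Its range was 54.24 to 76.00 FPKM in low mDP PAC mice and 50.55 to 66.37 FPKM in medium mDP PAC mice. Water mice 4 and 5 thus stood below all 10 PAC mice, while the other 3 water mice lay within their range. Neu1 had a log2 fold change of 0.18 for medium mDP PAC (interval -0.21 to 0.57, edgeR adjusted p = 0.644) and 0.27 for low mDP PAC (interval -0.12 to 0.66, edgeR adjusted p = 0.976). Neu3, the sialidase of the plasma membrane that prefers gangliosides (chr7:99811439-99828417, minus strand), ranged from 0.71 to 1.37 FPKM over all mice, with 0.08 for medium mDP PAC (interval -0.28 to 0.43) and -0.02 for low mDP PAC (interval -0.38 to 0.34) as its log2 fold changes. At 41.3 to 78.9 expected counts per mouse, Neu3 was the least counted of the 9 genes.

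**Figure D2:**
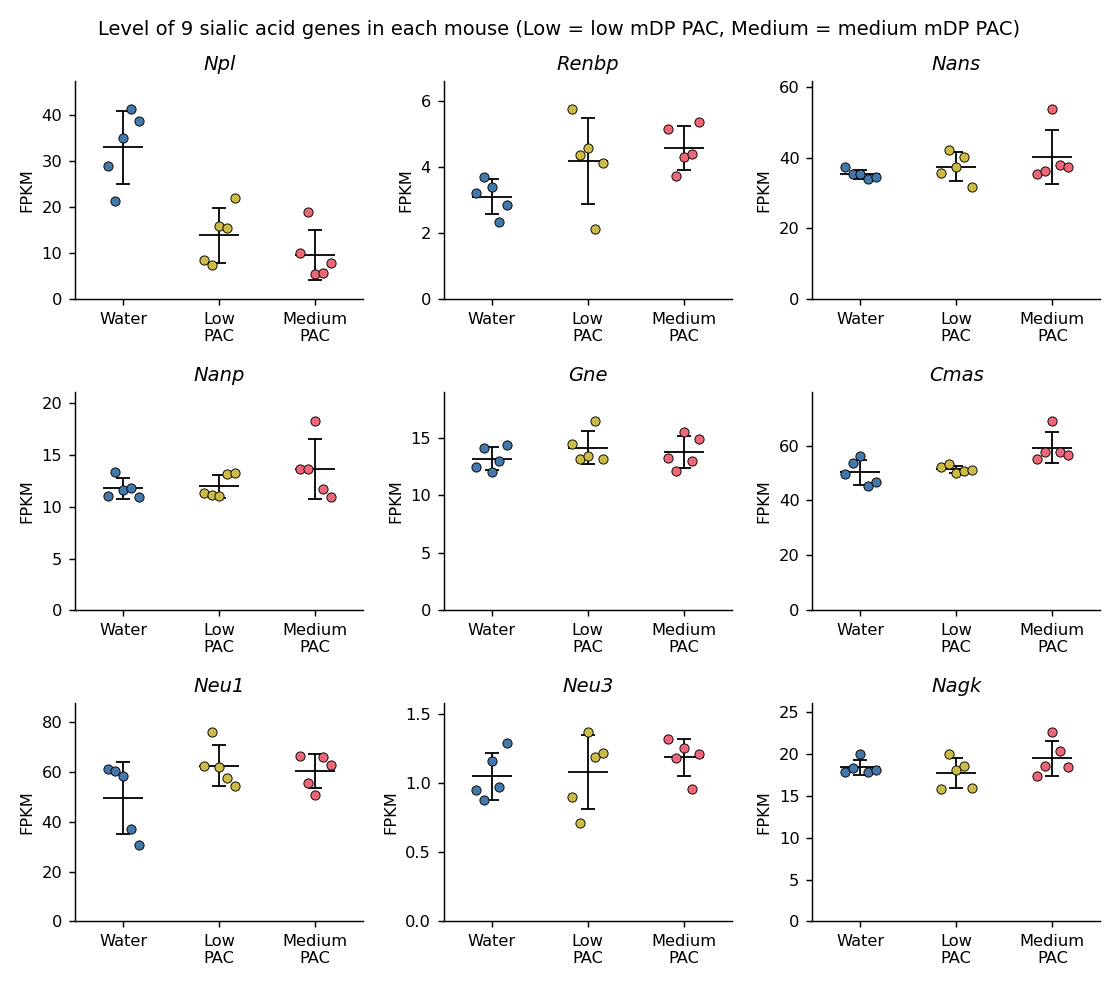
Level of the 9 genes in FPKM (vertical axes, each starting at 0 with its own scale) in each of 5 mice per group (points), with the mean and SD (lines and bars). In Npl the PAC groups lie mostly below water, medium mDP PAC mouse 3 is the highest mouse in Nans, Nanp and Cmas, and water mice 4 and 5 are the lowest in Neu1.

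Of the 8 genes other than Npl, 0 were called at an edgeR adjusted p under 0.05 in any of the 3 comparisons. Over all 14386 genes, 0.0139% were called for medium mDP PAC against water, 0.0% for low mDP PAC against water and 0.0% for medium against low mDP PAC. At an unadjusted p under 0.05, 1 of the 8 (Renbp) passed for medium mDP PAC against water, beside 14.8% of all genes, 0 of the 8 for low mDP PAC against water, beside 3.61%, and 0 of the 8 for medium against low mDP PAC, beside 3.89%. In FPKM, 1 of the 8 (Renbp) had groups that did not overlap for medium mDP PAC against water, beside 4.64% of all genes in either direction. This held for 0 of the 8 for low mDP PAC against water, beside 0.605%, and for 1 of the 8 (Cmas) for medium against low mDP PAC, beside 0.737%. With 8 genes, a count of 1 cannot be told from these background shares. In limma on log2(FPKM + 0.1), 0 of the 8 were called, beside 0.0626%, 0.0% and 0.0% of all genes in the 3 comparisons. In DESeq2, which called 1.77%, 0.0139% and 0.0% of the genes it gave an adjusted p, 0 of the 8 were called, but Renbp, Nanp and Neu3 were given no adjusted p for medium mDP PAC against water.

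The median log2 fold change of the 8 genes was 0.10 for medium mDP PAC against water, where 6 were higher and 2 lower, and 0.005 for low mDP PAC against water, where 4 were higher and 4 lower. Over all genes tested these medians were 0.002 and -0.01. The 8 genes ranged from -0.04 to 0.46 for medium mDP PAC and from -0.11 to 0.38 for low mDP PAC, beside -1.88 and -1.31 for Npl. Both comparisons use the same 5 water mice.

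**Figure D3:**
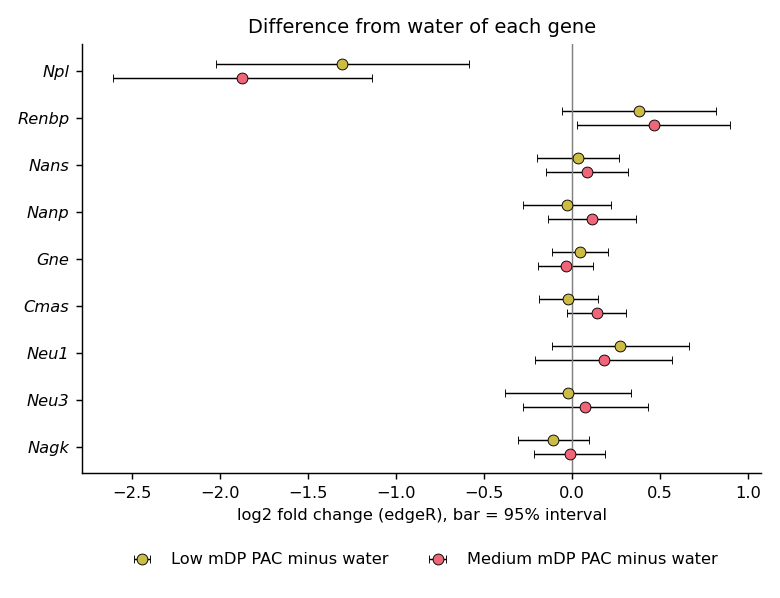
The log2 fold change of each gene against water (horizontal axis, edgeR) for low mDP PAC and medium mDP PAC (points), with its 95% interval (bars) and a line at 0. Npl lies at -1.31 and -1.88, and the other 8 genes lie between -0.11 and 0.46.

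Low mDP and medium mDP PAC, which differ in chain length, were compared directly at the same dose and schedule, as 1 pair of fractions. Medium minus low, the 8 genes other than Npl lay between -0.10 and 0.16 on the log2 scale, with a median of 0.09, 6 higher and 2 lower. The lowest limit of any interval was -0.48 (Neu1) and the highest 0.52 (Renbp), and most intervals were narrower. Renbp differed by 0.08 (interval -0.35 to 0.52), Nans by 0.06 (interval -0.18 to 0.29), Nanp by 0.14 (interval -0.11 to 0.39), Gne by -0.08 (interval -0.24 to 0.08) and Nagk by 0.10 (interval -0.11 to 0.30). Neu1 differed by -0.10 (interval -0.48 to 0.29) and Neu3 by 0.10 (interval -0.26 to 0.46).

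Around these 9 genes, a list of 49 further genes was drawn up by role, of which 42 were tested. The 7 that did not pass the filter on low counts were not tested (Neu4, St6gal2, St6galnac1, St6galnac5, St8sia5, Mag and Siglec15). At an edgeR adjusted p under 0.05, 0 of the 42 were called in each of the 3 comparisons. At an unadjusted p under 0.05, 10 of 42 (23.8%) passed for medium mDP PAC against water, beside 14.8% of all genes, 8 of them lower and 2 higher (St6galnac6 and St3gal3, the latter named after its value was seen). Of all genes that passed in edgeR, 1500 were lower and 628 higher. On the FPKM scale with limma the split of the list was 3 lower and 8 higher, beside 3.67% and 15.8% of all genes. No direction therefore holds for the list as a whole. For low mDP PAC against water 2 of 42 (4.76%) passed (St3gal6 and, named after its value was seen, Siglech), beside 3.61% of all genes, and for medium against low mDP PAC 1 of 42 (2.38%) passed (Cd33), beside 3.89%. The median log2 fold change of the 42 was -0.04 with medium mDP PAC, -0.06 with low mDP PAC and 0.03 between the fractions.

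In hexosamine supply and return, the genes of highest level were Gfpt1, the first enzyme of the hexosamine pathway, with 118.9 ± 16.2 FPKM in water mice, and Gpi1, the glucose phosphate isomerase, with 171.9 ± 10.03 FPKM. With medium mDP PAC, Gfpt1 had a log2 fold change of -0.27 (SE 0.12, edgeR adjusted p = 0.323). Gnpda1, the deaminase that sends glucosamine phosphate to glycolysis, was close to it at -0.27 (SE 0.13, edgeR adjusted p = 0.333), and Gpi1 stood at 0.06 (SE 0.07). For low mDP PAC the 3 values were -0.12, -0.16 and 0.05.

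Slc17a5, which carries freed sialic acid out of the lysosome to the cytosol where Npl acts, had a mean of 10.1 ± 1.31 FPKM in water mice, 9.84 ± 0.849 in low mDP PAC mice and 9.11 ± 1.14 in medium mDP PAC mice. The last was -0.24 from water on the log2 scale (SE 0.10, unadjusted p = 0.0296, edgeR adjusted p = 0.295). Siae, which removes O-acetyl groups from sialic acid, stood at 18.2 ± 1.14 FPKM in water mice and 15.6 ± 2.36 in medium mDP PAC mice (log2 fold change -0.32, SE 0.10, unadjusted p = 0.00613, edgeR adjusted p = 0.217). Neither was called, and 2 of 5 medium mDP PAC mice lay below the lowest water mouse in each. Cmah, which turns CMP-sialic acid into its glycolyl form, was level at 11.5 ± 1.67 and 12.4 ± 1.77 FPKM. Ctsa, the protective partner of Neu1 in the lysosome, had 53.7 ± 3.83 FPKM in water mice and 52.4 ± 2.04 in medium mDP PAC mice (log2 fold change -0.13, SE 0.07).

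The most abundant gene of the list was St3gal4, a sialyltransferase of glycoproteins, with 735.3 ± 71.7 FPKM in water mice, 690.5 ± 38.6 in low mDP PAC mice and 648.8 ± 103.9 in medium mDP PAC mice (log2 fold change -0.28, SE 0.12, edgeR adjusted p = 0.318). St3gal6, of the same family, went from 12.4 ± 2.47 FPKM with water to 10.2 ± 2.15 and 9.68 ± 1.12, which is -0.35 on the log2 scale for low mDP PAC (unadjusted p = 0.0264, edgeR adjusted p = 0.976) and -0.45 for medium mDP PAC (unadjusted p = 0.00612, edgeR adjusted p = 0.217). Its medium mDP PAC level lay below all water mice in 4 of 5 mice. In the opposite direction, St6galnac6, which acts on gangliosides, stood at 2.53 ± 0.550 FPKM in water mice and 3.40 ± 0.246 in medium mDP PAC mice (log2 fold change 0.34, SE 0.15, edgeR adjusted p = 0.306). St6galnac2, which acts on O-glycans, stood at 27.1 ± 3.56 and 32.5 ± 3.24 FPKM (log2 fold change 0.17, SE 0.10, edgeR adjusted p = 0.400). Of the alpha-2,8-sialyltransferases, St8sia4 had 2.95 ± 0.839 FPKM with water and 2.97 ± 1.45 with medium mDP PAC, and St8sia3 was near 0 with 0.134 ± 0.0907 and 0.188 ± 0.0683 FPKM.

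The sialic acid-binding lectins of immune cells all had a negative log2 fold change with medium mDP PAC, 7 of the 7 tested, on the TMM, upper-quartile and FPKM scales alike. Their median was -0.28, between -0.55 and -0.09, beside 0.002 over all genes tested. Some of these values were small beside their error, as in Cd22 (-0.11, SE 0.985) and, named after its value was seen, Siglecf (-0.09, SE 0.215). In mean FPKM neither Cd22 nor Siglecf was lower with medium mDP PAC than with water. In edgeR 2 of the 7 passed an unadjusted p under 0.05 (Cd33 and, named after its value was seen, Siglece), beside 14.8% of all genes. With upper-quartile scaling and in limma on log2(FPKM + 0.1), 1 of the 7 passed. Of all 14386 genes, 816 passed as lower and 1505 as higher with upper-quartile scaling, and 528 and 2269 in limma. Among 7 genes, a count of 1 cannot be told from these backgrounds. For low mDP PAC against water 6 of the 7 were negative, with a median of -0.30 (5 of 7 and -0.21 in limma), and medium minus low mDP PAC 4 were negative and 3 positive. Cd33, a myeloid lectin, had the smallest p of the whole list, with a mean of 2.82 ± 0.263 FPKM in water mice, 2.53 ± 0.582 in low mDP PAC mice and 2.06 ± 0.275 in medium mDP PAC mice. Its medium mDP PAC mice ranged from 1.72 to 2.34 FPKM, below the lowest water mouse at 2.59 FPKM, which made it the 1 gene of the 42 (2.38%) whose groups did not overlap, beside 4.64% of all genes. Its log2 fold change was -0.55 (SE 0.15, unadjusted p = 0.0019, edgeR adjusted p = 0.185). Cd22, the B cell lectin and the most abundant of the group, had 6.78 ± 6.02 FPKM in water mice, 3.09 ± 2.97 in low mDP PAC mice and 6.79 ± 8.48 in medium mDP PAC mice. Cd22 is also a gene of the B cells of Peyer's patches, whose 8 listed markers summed to between 5.69 and 228.7 FPKM per mouse. In edgeR all 8 were negative with low mDP PAC (median -1.26), as was Cd22 (-1.18), and 2 of 8 with medium mDP PAC (median 0.13). In limma on log2(FPKM + 0.1) all 8 were negative with medium mDP PAC (median -0.41). At an unadjusted p under 0.05 in edgeR, 0 of these 8 passed in either comparison. Of 10 macrophage markers, 9 were lower with medium mDP PAC, with a median log2 fold change of -0.13 (8 of 10 on the FPKM scale), and the summed FPKM of the list ranged from 131.9 to 178.4 with water and from 125.4 to 195.8 with medium mDP PAC. The part of these cells in the values of the lectins was not tested.

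**Figure D4:**
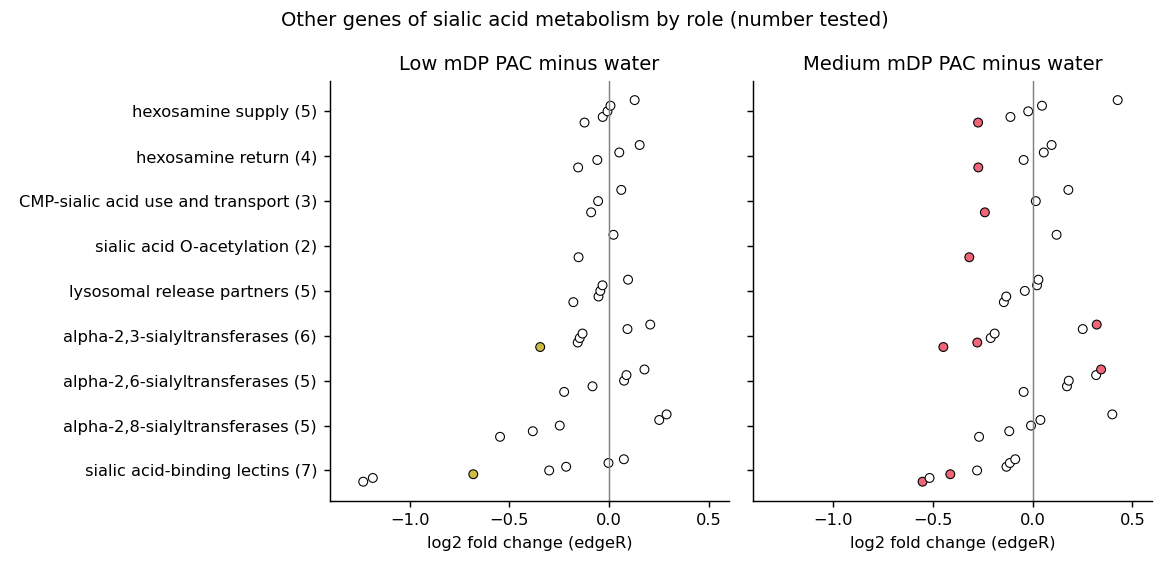
The log2 fold change against water (horizontal axes, edgeR) of the 42 tested genes of the list, grouped by role with the number tested, for low mDP PAC (left) and medium mDP PAC (right). Filled points have an unadjusted p under 0.05, as have 2 genes on the left and 10 on the right, and the lectins all lie left of 0 with medium mDP PAC.

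Markers of cell types and of position along the intestine were read in the same libraries. Of 10 enterocyte markers (such as Vil1, Alpi and Sis) 10 had a negative log2 fold change with medium mDP PAC and 10 with low mDP PAC, with medians of -0.38 and -0.21. In edgeR 0 of them were called, while 7 of 10 had an unadjusted p under 0.05 in medium mDP PAC mice, beside 14.8% of all genes, and 1 of 10 with low mDP PAC, beside 3.61%. DESeq2 called 1 of them with medium mDP PAC, Krt20 (named after its value was seen), beside 1.77% of the genes it gave an adjusted p. On the FPKM scale 9 of 10 were negative with medium mDP PAC, and 5 of 10 were lower at an unadjusted p under 0.05 in limma, beside 3.67% of all genes. With upper-quartile scaling the latter count was 4 of 10, beside 5.67%. Their summed level ranged from 13280 to 16390 FPKM in water mice, from 11310 to 14680 in low mDP PAC mice and from 9114 to 13940 in medium mDP PAC mice. Medium mDP PAC mouse 3 stood apart, with an enterocyte score, the mean of its centred log2(FPKM + 0.1) over the 10 markers, of -0.695 beside -0.065 to 0.041 in the other 4 mice of its group. Without it the median log2 fold change of the 10 markers was -0.23, and the difference of the score from water went from -0.32 to -0.19. In the fit without this mouse, 5 of 10 had an unadjusted p under 0.05, beside 813 lower and 759 higher among 14455 genes. Of 7 tested markers of the proximal small intestine, 6 were lower with medium mDP PAC (median -1.17) and 7 with low mDP PAC (median -0.81). In edgeR 0 of them were called, while 4 of 7 had an unadjusted p under 0.05 in medium mDP PAC mice, beside 14.8% of all genes, and 1 of 7 with low mDP PAC, beside 3.61%. DESeq2 called 1 of them with medium mDP PAC, Apoa4, an apolipoprotein, beside the same 1.77%. Of 8 distal ileum markers, 6 were negative with medium mDP PAC (median -0.10) and 2 with low mDP PAC (median 0.05), and on the FPKM scale 4 of 8 (median 0.02) and 1 of 8 (median 0.12) were. In edgeR 0 of these 8 had an unadjusted p under 0.05 in either comparison. As a mean of centred log2(FPKM + 0.1), the distal list differed from water by 0.02 with medium mDP PAC and the proximal list by -0.95. Gata4, a factor of the proximal intestine, had means of 7.09, 2.76 and 1.33 FPKM in water, low and medium mDP PAC mice. Lct, lactase, had means of 56.3, 27.7 and 17.3 FPKM. Fabp1, on the same list, went the other way with medium mDP PAC, with means of 211.6, 199.4 and 307.0 FPKM. Adh1, also on it, was nearly level at 43.4, 42.2 and 42.9 FPKM. All 8 smooth muscle markers had a positive log2 fold change with medium mDP PAC (median 0.44) and with low mDP PAC (median 0.32), as had 7 of 9 and 8 of 9 goblet cell markers (medians 0.14 and 0.12), and 6 of 6 and 5 of 6 crypt and proliferation markers (medians 0.21 and 0.19). Of these 3 lists edgeR, DESeq2 and limma called 0 genes in either comparison, and at an unadjusted p under 0.05 in edgeR 1 of them (of the crypt) passed with medium mDP PAC, beside 14.8% of all genes, and 0 with low mDP PAC, beside 3.61%. In limma on log2(FPKM + 0.1), 5 of 8 smooth muscle, 4 of 6 crypt and 1 of 9 goblet cell markers had an unadjusted p under 0.05 and were higher in medium mDP PAC mice, beside 15.8% of all genes. Without medium mDP PAC mouse 3 the goblet cell median went from 0.14 to 0.05, 5 of 6 crypt markers were positive, and the macrophage median was -0.20. All 5 adipose tissue markers had positive values in both comparisons (medians 0.64 and 0.58, with Cidec at 0.00 for medium mDP PAC), with 0 at an unadjusted p under 0.05 in edgeR. In bulk tissue, fewer cells of a type and less RNA per cell cannot be told apart.

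After the enterocyte score of each mouse was subtracted from Npl, the log2 difference from water was -1.57 with medium mDP PAC (-1.54 without mouse 3) and -1.14 with low mDP PAC. A position score was set as the mean over the proximal markers less the mean over 8 distal ileum markers. It had a mean of 0.63 ± 0.84 in water mice, -0.29 ± 0.88 in low mDP PAC mice and -0.34 ± 0.55 in medium mDP PAC mice. After Npl was lowered by 0.62 per unit of the position score, its slope within groups, the log2 difference from water was -1.30 with medium mDP PAC and -0.75 with low mDP PAC. Both adjustments were added after seeing the data, and the part of these markers' differences in the level of Npl was not tested.

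Npl also varied between mice of the same group, and this spread was set against 6 marker scores after the group means, which had chosen Npl, were subtracted. Over 15 mice, Npl followed the position score with a Pearson r of 0.793 (permutation within groups, two-sided, p = 0.00027, adjusted over the 6 scores 0.00162) and a Spearman rho of 0.786 (permutation p = 0.00135, adjusted 0.0081). With the 2 mice most distant from the median score left out, r was 0.839. Within the groups r was 0.842 in water mice, 0.932 in low mDP PAC mice and 0.758 in medium mDP PAC mice, each over 5 mice. Mice with a higher position score tended to have more Npl in each of the 3 groups.

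With the goblet cell score Npl had a Pearson r of -0.681 (permutation p = 0.00862, adjusted 0.0259) and a Spearman rho of -0.554 (permutation p = 0.0397, adjusted 0.0793). Within the groups r was -0.617 in water mice, -0.798 in low mDP PAC mice and -0.750 in medium mDP PAC mice. With the 2 most distant mice left out r was -0.575, and the call was lost (adjusted permutation p = 0.153). With the enterocyte score r was 0.552 (permutation p = 0.101, adjusted 0.201) and rho 0.593 (permutation p = 0.0214, adjusted 0.0642). The relations with the macrophage score (r = 0.151, rho = 0.079, adjusted permutation p = 0.684 and 0.946), the B cell score of Peyer's patches (r = 0.130, rho = -0.021, adjusted permutation p = 0.684 and 0.946) and the crypt and proliferation score (r = -0.271, rho = -0.296, adjusted permutation p = 0.447 and 0.440) did not pass the threshold.

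**Figure D5:**
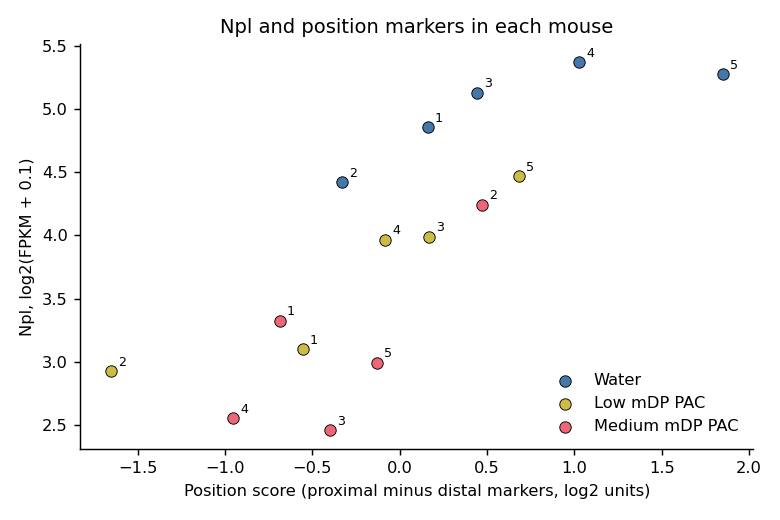
Npl as log2(FPKM + 0.1) (vertical axis) against the position score, proximal minus distal markers in log2 units (horizontal axis), in each of 15 mice (points, coloured by group and numbered by mouse). Npl is higher at higher scores within each group, with r between 0.758 and 0.932.

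The genes most like Npl were sought among 12419 other genes with a mean of at least 1 FPKM, by the Pearson r of log2(FPKM + 0.1) over the 15 mice with group means subtracted. The 10 highest were Gm11127 (r = 0.934), Rragd (0.931), Cyp4v3 (0.929), Enpp7 (0.929), Cdr2 (0.923), Slc5a11 (0.919), Lct (0.918), Ace (0.916), Unc93a (0.911) and Leap2 (0.910), and the Spearman rho of these 10 genes lay between 0.839 and 0.957. Several of them act at the enterocyte brush border, namely Enpp7, an alkaline sphingomyelinase, Slc5a11, an inositol transporter, Lct, and Ace, a peptidase. Lct is also on the proximal list, so it is in the position score. Group means were not used to find them. All 10 followed Npl closely in the same libraries, so they are not 10 separate observations. The mean FPKM of each was lower with both PAC fractions than with water, but the share of all genes with lower means was not counted. Enpp7, for example, had 340.6 ± 141.8 FPKM in water mice, 178.1 ± 102.8 in low mDP PAC mice and 124.0 ± 86.0 in medium mDP PAC mice.

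At the other end stood Slc40a1, the iron exporter ferroportin (r = -0.898), Oma1, a mitochondrial protease (-0.883), Endod1 (-0.880), 1810065E05Rik (-0.877) and Tspan1, a tetraspanin (-0.865). Of the other 8 sialic acid genes, Neu3 was the most like Npl (r = 0.629, rank 269 of 12419) and Nans the least (r = -0.573, rank 12085), with Nanp at 0.005, Gne at -0.328, Renbp at -0.424, Neu1 at -0.429, Nagk at -0.445 and Cmas at -0.468. The other 8 were among the genes searched, and none of them was in the 10 above. These correlations share the libraries and their scaling, and are given without a test.

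Because Npl moved together with these genes within groups, the 250 bases before the RefSeq transcript start (GRCm38.p6) were searched for short motifs of intestinal and general factors on both strands, chosen after the values were known. A window was at hand for 7 of the 9 sialic acid genes and 9 of the 10 genes most like Npl. The E-box CACGTG was found in the window of Npl and in that of Cyp4v3, and in 6.02% of all 32851 windows. The GATA motif AGATAA was found in Enpp7, in Lct and in the sialic acid gene Neu3, beside 9.99% of all windows. The CDX motif TTTATG was found in Lct (10.8% of all windows), the HNF4 motif AAAGTCC in Enpp7, Ace and Neu3 (3.58%), the TATA motif TATAAA in Ace and Gm11127 (12.4%) and the HNF1 motif GTTAAT in none of these windows (6.43%). Npl held the E-box alone of these 6 motifs.
The E-box stretches of Npl and Cyp4v3 and the whole Lct window, from the best known proximal gene among the 10, are printed 5′ to 3′ on the strand of the gene, with E-box, GATA and CDX letters in capitals.
Npl, chr1:153549748-153549777, minus strand: cccgcgcggcccCACGTGgtcccgcagccc
Cyp4v3, chr8:45333317-45333346, minus strand: accgtgagctttCACGTGcattctgaactt
Lct, chr1:128328319-128328568, minus strand: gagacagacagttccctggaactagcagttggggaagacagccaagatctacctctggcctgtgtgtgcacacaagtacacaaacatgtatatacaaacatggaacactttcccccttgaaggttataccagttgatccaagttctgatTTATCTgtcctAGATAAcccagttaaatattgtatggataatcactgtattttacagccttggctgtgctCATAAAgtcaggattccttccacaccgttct
In Lct, the capitals are a GATA match on each strand and a CDX match on the opposite strand. The stretch of Npl lies within the first, noncoding exon of a longer GENCODE transcript. The window of Npl has 59.6% G and C and 15 CpG, and that of Lct has 42.8% and 1. A match describes letters only.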

How the data were processed

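Ileum RNA of 15 mice was sequenced by the authors on a BGISEQ-500 instrument and mapped to mm10 (GRCm38), with Bowtie2 in the study's methods and HISAT in the submitters' processing notes. The counting tool is not given in the sources used here. The authors deposited, for each gene and mouse, an expected count, which is an estimated number of fragments and is not normalized, and an FPKM, which is scaled by gene length and by library. The deposited gene length is the other value in each file. A gene absent from a file was set to 0. Groups came from the labels.

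After rounding, the expected counts entered edgeR 4.0.16 in R 4.3.3 (TMM, quasi-likelihood), in 1 model of the 3 groups, over 14386 genes kept by its filter on low counts. Genes were called at an adjusted p (Benjamini-Hochberg) under 0.05. Each standard error came from the test statistic, and intervals use the residual degrees of freedom. DESeq2 1.42.0 and limma 3.58.1, on log2(FPKM + 0.1), were alternatives, as were other scalings, filters and models and leaving out each mouse. Marker scores used log2(FPKM + 0.1), and permutations (100000) were drawn within groups with numpy 2.4.6 and scipy 1.17.1. Unless said otherwise, named genes of the list are the most abundant gene and the gene of smallest p of each role (1 of these is not reported here), and the 10 genes most and 5 least like Npl. The 9 genes and all lists were chosen with earlier results of these data known. The tests were also run on simulated data with known changes.

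Same-numbered mice of different groups deviated together in 5 of 15 pairs (r over 0.1, range -0.307 to 0.445), so the numbers were not taken to pair mice. Promoter windows are from RefSeq on GRCm38.p6 and gene positions from GENCODE M21. Counting error is small at these depths, except in Renbp, Neu3 and other genes of few counts.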

Additional observations from a re-analysis of the deposited data

Results flagged for a closer look

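Single mice stood apart from the other 4 mice of their group in 7 of 93 groups of values looked at, by Dixon's test at the 95% level (a gap over 0.71 of the range), which chance alone gives in about 1 of 20 groups. Medium mDP PAC mouse 3 accounts for 5 of the 7. It had 53.68 FPKM of Nans where the other 4 ranged from 35.53 to 37.92, and 69.08 FPKM of Cmas where they ranged from 55.14 to 57.74. It had 469.64 FPKM of St3gal4, the most abundant sialyltransferase, where they ranged from 663.74 to 724.43, and 0.07 FPKM of St8sia3 where they ranged from 0.20 to 0.24. Its enterocyte score was -0.695 where theirs ranged from -0.065 to 0.041. The same mouse had the lowest Npl of all 15 mice (5.40 FPKM) and the highest Nanp (18.34 FPKM) and Nagk (22.63 FPKM) of all 15. Medium mDP PAC mouse 2 had 11.65 FPKM of St3gal6 where the others ranged from 8.89 to 9.42, and it also had the highest Npl of its group (18.85 FPKM). Water mouse 3 had 19.94 FPKM of Nagk where the others ranged from 17.79 to 18.31.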

How the results depend on the processing

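Across the alternatives, Npl was lower with both PAC fractions, from -2.29 to -1.69 for medium mDP PAC and from -1.53 to -1.16 for low mDP PAC when each mouse was left out in turn, and from -0.99 to -0.34 between the fractions. Genes changed with medium mDP PAC against water numbered 2 in edgeR, 136 in DESeq2, 9 in limma with either pseudocount, 4 with only the 2 groups in the fit, and 2 to 11 without each mouse, with 4 without water mouse 2 and 11 without medium mDP PAC mouse 2. For low mDP PAC they numbered 0, then 2 in DESeq2 and 0 to 1 without each mouse (1 without low mDP PAC mouse 2). With the replicate number as a block, 2, 0 and 0 genes were changed, and 2 of 15 mice correlated best with a mouse of their own number. None of the other 8 genes was called under an alternative that gave an adjusted p.

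Small uncalled differences changed sign, and the cause was not tested. In limma with a pseudocount of 0.1, with that of 1, and in edgeR with upper-quartile scaling, in that order, Nanp with low mDP PAC was 0.024, 0.023 and 0.001, Cmas with low mDP PAC 0.037, 0.036 and 0.010, Neu3 with low mDP PAC 0.014, 0.014 and 0.007, Gne with medium mDP PAC 0.057, 0.054 and 0.026, and Nagk with medium mDP PAC 0.076, 0.073 and 0.051. Nagk was also 0.009 in DESeq2, 0.009 with RLE scaling and 0.019 without the filter. Without each mouse in turn, low mDP PAC against water ranged from -0.031 to 0.091 for Nans, -0.071 to 0.015 for Nanp, -0.014 to 0.073 for Gne, -0.065 to 0.030 for Cmas and -0.130 to 0.086 for Neu3, medium mDP PAC against water from -0.039 to 0.036 for Nagk, and medium against low mDP PAC from -0.082 to 0.210 for Renbp, -0.051 to 0.117 for Nans, -0.146 to 0.003 for Neu1 and -0.010 to 0.205 for Neu3.

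The r of Npl with the position score stayed between 0.746 and 0.846 without each mouse. With the goblet cell score r lay between -0.724 and -0.628 and lost its call without water mouse 2 (-0.638, adjusted permutation p = 0.124), low mDP PAC mouse 2 (-0.647, 0.0702) or low mDP PAC mouse 5 (-0.651, 0.0684), and was -0.575 without the 2 farthest mice, which also lost the call. With the macrophage score it ranged from -0.162 to 0.364. With 5 mice per group, differences inside the printed intervals could not be resolved.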
